A study of Mus musculus with 18 samples.

Results

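The 6 actin genes and 4 tropomyosin genes of the mouse were followed through early differentiation of immortalized myoblasts, in wildtype and in LAP2α knockout cells. The members are the 10 of 19153 listed genes whose Ensembl identifier maps to *Acta1*, *Actc1*, *Acta2*, *Actg2*, *Actb*, *Actg1*, *Tpm1*, *Tpm2*, *Tpm3* or *Tpm4*, and all 10 passed the filter on low counts that left 17672 genes for testing. RNA-seq was performed on polyadenylated RNA from 6 groups of 3 libraries each: wildtype and knockout myoblasts that were proliferating (Prol) in 20% fetal calf serum, confluent (D0, the start of differentiation), or kept for 48 h in 5% serum after confluence (D2, day 2 of differentiation). All groups carry a p53 knockout. The knockout cells had received Cas9 with a guide against LAP2α, a nucleoplasmic isoform of the *Tmpo* gene, and the wildtype cells the Cas9 vector without a guide. Both were sorted in bulk for EGFP and are pools rather than clones. The labels do not say that replicates are separate cultures, so the p-values cover the spread between these libraries, which may be partly technical.

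Actin filaments run through every cell, and each tissue makes them from a different mixture of nearly identical actins. Cytoplasmic β- and γ-actin (*Actb*, *Actg1*) build the cortex and stress fibres, the α-actins of skeletal and cardiac muscle (*Acta1*, *Actc1*) form the thin filaments of the sarcomere, and the smooth muscle actins (*Acta2*, *Actg2*) serve contractile bundles. Tropomyosins lie along the filament. In striated muscle they gate myosin binding together with troponin, whereas their shorter cytoplasmic forms stabilize stress fibres. Embryonic and regenerating skeletal muscle fibres are known to express cardiac actin before skeletal actin takes over.

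The libraries held between 26437823 and 41619014 expected counts, estimated read numbers that need not be whole. Values are CPM, expected counts divided by an effective library size, and the 10 genes together took 0.677% to 1.60% of a library's counts. Of the myogenic markers fixed for a check of the cell type, *Des*, *Myod1* and *Myog* rose from Prol to D2 in both genotypes and *Myf5* did not pass the test. *Pax7* is not listed in the files. The summed level of these markers was 28.5 to 34.3 CPM in the Prol libraries and 313 to 875 at D2. *Tmpo*, of which all isoforms are counted together, was at 300 ± 21.8 CPM (SD, n = 3) in wildtype Prol and 246 ± 16.6 (SD, n = 3) in knockout Prol, so it is no direct check of LAP2α. The replicate 1 libraries at D2 stood apart. Their scaling factors were 0.909 in wildtype and 0.931 in knockout, against 1.11 to 1.18 in the other D2 libraries, and the summed level of 5 fibroblast markers was 12463 and 13759 CPM in them, against 1919 to 4047 CPM in the other D2 libraries. Most of that sum was *Col1a1*, at up to 12263 CPM in wildtype and 13453 CPM in knockout D2 libraries. No other of the 5 markers exceeded 241 CPM at D2. The markers also moved with differentiation, since 4 of the 5 rose in each genotype, and their part in the results was not tested. Where leaving the replicate 1 libraries at D2 out changed a call, a value without them is given.

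The actin genes resemble each other so closely that the placing of reads between them had to be considered first. The reads were 50 bases long. Over the 1128 coding bases that the actins share when they are aligned from the stop codon, *Acta1* and *Actc1* were identical at 86.2% of positions, *Acta1* and *Acta2* at 85.4%, and *Actb* and *Actg1* at 88.7%. The 50-base coding window in which the other muscle actins together differ most from *Acta1* is shown, with capitals marking bases that differ from *Acta1*. It is the best case for telling their reads from those of *Acta1*, and differences among the others were not scored. It spans coding bases 798 to 847 of *Acta1*, *Acta2* and *Actc1* and 795 to 844 of *Actg2*, on transcripts of GENCODE M21, and the differences from *Acta1* numbered 11 in *Actc1*, 10 in *Acta2* and 12 in *Actg2*.
Acta1: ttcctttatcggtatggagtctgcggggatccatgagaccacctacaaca
Actc1: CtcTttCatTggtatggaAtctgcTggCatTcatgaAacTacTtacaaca
Acta2: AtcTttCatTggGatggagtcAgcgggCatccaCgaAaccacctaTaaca
Actg2: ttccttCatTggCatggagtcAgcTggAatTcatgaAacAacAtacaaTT

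Counted over whole transcripts, 50-base words that occur in no other annotated gene made up 98.0% of the words of *Acta1*, 99.7% of those of *Acta2* and 100% of those of *Actc1*, *Actg2*, *Tpm1* and *Tpm2*. The share was 90.9% in *Actb*, 88.4% in *Tpm4*, 76.8% in *Tpm3* and 62.6% in *Actg1*. The genes that held most of the shared words of *Actg1*, *Tpm3* and *Tpm4* are actin and tropomyosin pseudogenes or retrogenes. *Gm12715* shared 33.2% of the words of *Actg1* and was at 1.21 CPM or less in every library, and *Tpm3-rs7* shared 23.2% of those of *Tpm3* at no more than 2.98 CPM. For *Actb* the main sharer was *Lrrc58*, which held 6.14% of its words and was itself expressed, at 69.6 to 376 CPM. Exact words do not cover reads with sequencing errors. The values of *Actb*, *Actg1*, *Tpm3*, *Tpm4* and, at its low level, *Actg2* are uncertain to that degree. So are the low levels of *Acta1* and *Actc1* before D2, and with them the size of their folds. *Acta1* shared 28 words with *Actb* and 10 with *Actg1*, both far more abundant in Prol.

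The striated muscle actins were almost silent before differentiation and rose at D2 in both genotypes, with fitted folds of 226 to 1180. *Acta1*, skeletal muscle α-actin (ENSMUSG00000031972), lies on the minus strand at chr8:123891769-123894751 of GRCm38. In wildtype Prol its libraries held 5.32, 1.19 and 1.02 CPM, and at D2 they held 1701, 896 and 810 CPM. In knockout cells the Prol libraries held 2.53, 4.51 and 1.20 CPM and the D2 libraries 517, 638 and 478 CPM. Every D2 library was far above every Prol library, with no overlap. The log2 fold change on the CPM scale was 9.17 (SE 0.81, adjusted p = 8.9e-07, limma) in wildtype and 7.82 (SE 0.81, adjusted p = 3.7e-06) in knockout cells. In wildtype it was 9.92 without the Prol replicate 1 library, the highest of that group.

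*Actc1*, cardiac muscle α-actin (ENSMUSG00000068614, minus strand, chr2:114047282-114053548), had still lower Prol levels, of 1.33, 0.692 and 0.287 CPM in wildtype and 1.30, 1.49 and 0.449 CPM in knockout cells. At D2 it reached 1402, 610 and 506 CPM in wildtype and 400, 399 and 278 CPM in knockout cells. Its log2 fold change was the largest of the 10 members, at 10.21 (SE 0.71, adjusted p = 1.7e-07) in wildtype and 8.53 (SE 0.71, adjusted p = 8.3e-07) in knockout cells. Expected counts of *Actc1* went down to 8 in a Prol library, which leaves the size of the fold less precise than its direction. Of the other cardiac markers fixed, *Nppa*, *Nppb* and *Myl7* are not listed in the files, and *Myh6* rose in both genotypes, from no more than 0.0752 CPM in Prol to between 1.97 and 11.4 CPM at D2.

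CArG boxes, the elements bound by serum response factor, are a known feature of muscle actin promoters. RefSeq promoter windows were at hand for 8 of the 10 members, the exceptions being *Actb* and *Actg2*. The 250 bases before the RefSeq start were searched on both strands for exact matches to CCWWWWWWGG, with W for A or T. Such a CArG box was found for *Acta1*, *Actc1* and *Actg1*, against 1.47% of all 32851 promoter windows of that length. The box lay at -73 to -64 in *Acta1*, -47 to -38 in *Actc1* and -90 to -81 in *Actg1*, counted from the start site. The boxes are shown in capitals with 25 bases on either side, all on the minus strand of GRCm38.p6 and outside the exons annotated in GENCODE M21, at chr8:123894814-123894873, chr2:114052888-114052947 and chr11:120348551-120348610.
Acta1: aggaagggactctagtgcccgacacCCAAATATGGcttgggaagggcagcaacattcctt
Actc1: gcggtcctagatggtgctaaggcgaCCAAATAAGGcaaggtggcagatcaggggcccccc
Actg1: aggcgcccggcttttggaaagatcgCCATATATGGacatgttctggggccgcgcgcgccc
The exact box is thus shared by 2 members that rose at D2 and by *Actg1*, which did not. The E-box sequence CANNTG occurred in 66.2% of all windows and in those of *Acta1*, *Acta2*, *Actg1*, *Tpm1*, *Tpm2* and *Tpm3*, but not of *Actc1* or *Tpm4*. The MEF2 box, held by 2.92% of all windows, was found in none of them. The window of *Acta2* lay for 217 of its 250 bases inside exons annotated in GENCODE M21, so it does not cover the sequence before the longer annotated transcript. It holds CCCTATATGG and CCTTGTTTGG, which depart from the exact CArG pattern at a base each. Near matches are not particular to *Acta2*, since CCCTATATGG also occurs in the window of *Actc1* and CCATATACGG in that of *Acta1*. They were not counted in any window.

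The smooth muscle actins behaved differently from each other. *Acta2*, smooth muscle α-actin (ENSMUSG00000035783, minus strand, chr19:34241090-34255590), was already well expressed in Prol, at 444, 172 and 309 CPM in wildtype and 345, 260 and 331 CPM in knockout cells. At D2 it stood at 1415, 777 and 780 CPM in wildtype and 936, 516 and 734 CPM in knockout cells. The D2 and Prol libraries did not overlap in either genotype. The rise was 1.73 on the log2 scale (SE 0.36, adjusted p = 0.0017) in wildtype and 1.19 (SE 0.36, adjusted p = 0.018) in knockout cells. In knockout cells the call was lost without the Prol replicate 2 library (log2 fold change 1.07, adjusted p = 0.066) and without the D2 replicate 1 library (0.99, adjusted p = 0.069).

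*Actg2*, smooth muscle γ-actin (ENSMUSG00000059430, minus strand, chr6:83512905-83536265), was the least abundant member at D2. Its wildtype libraries held 14.3, 3.97 and 8.66 CPM in Prol and 16.3, 3.57 and 5.78 CPM at D2, with full overlap. In knockout cells it was at 6.67, 5.59 and 8.44 CPM in Prol and at 5.35, 2.01 and 3.97 CPM at D2. Its log2 fold changes of -0.19 (SE 0.55, adjusted p = 0.84) in wildtype and -0.96 (SE 0.55, adjusted p = 0.21) in knockout cells did not pass the test. The 4 other smooth muscle markers listed were as mixed, since *Synpo2* rose and *Cnn1* fell in both genotypes while *Smtn* and *Lmod1* did not pass the test. *Myh11*, the defining smooth muscle myosin, is not listed in the files. The summed level of the 4 markers was 65.9 to 95.8 CPM in wildtype Prol and 73.0 to 169 CPM in wildtype D2, and in knockout cells 70.8 to 96.4 and 81.4 to 138 CPM. Their part in the rise of *Acta2* was not tested, and in bulk RNA a change in the number of cells of a type and a change per cell cannot be told apart.

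**Figure D1:**
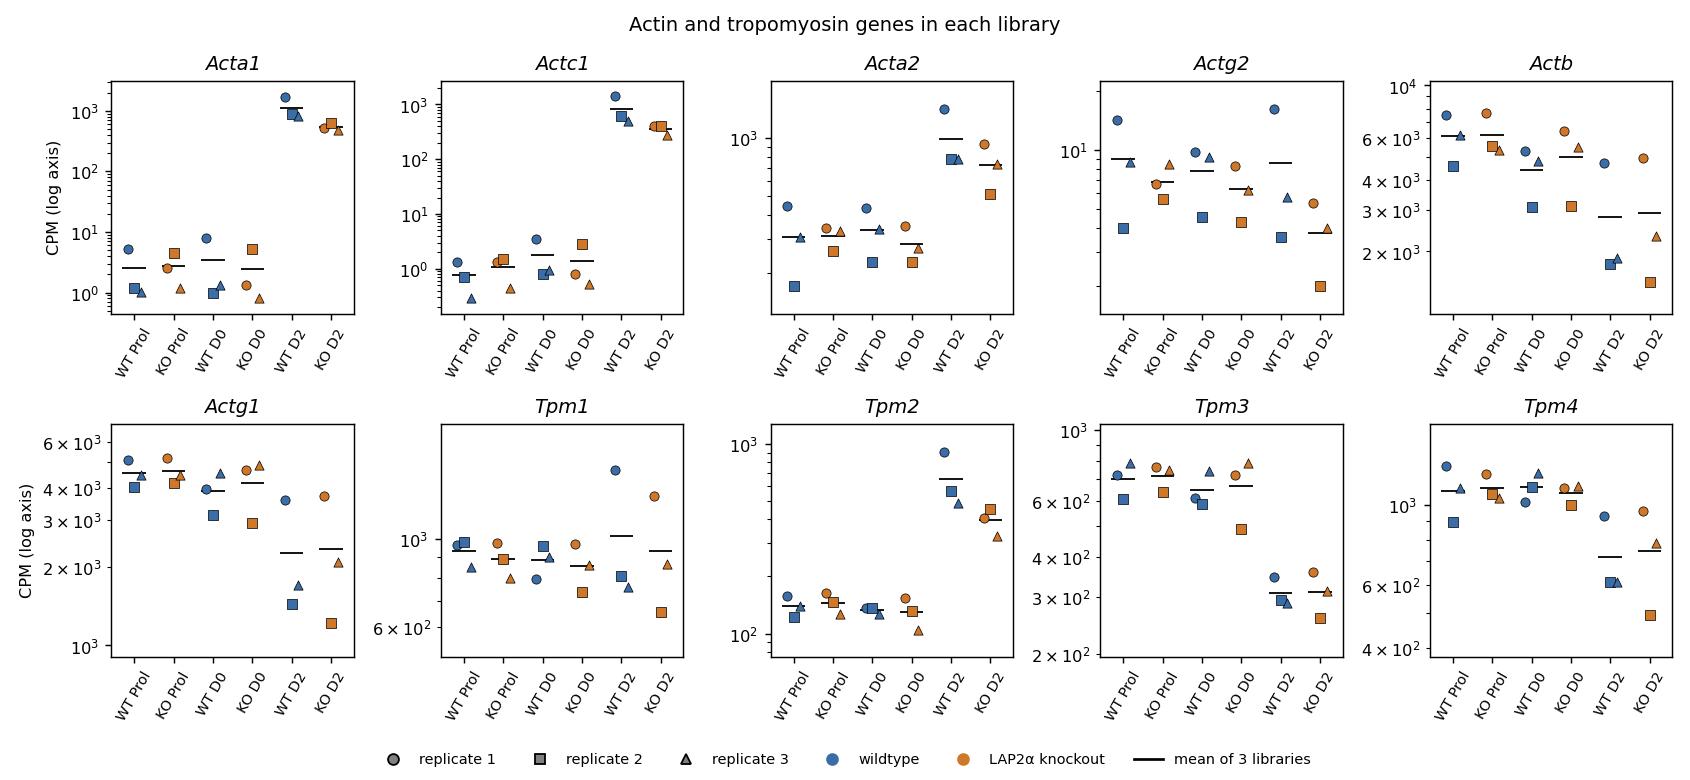
CPM of each of the 10 genes in each of the 18 libraries, on a log axis that differs between panels; symbols mark the replicate number, blue is wildtype, orange LAP2α knockout, and a line the mean of 3 libraries. *Acta1*, *Actc1*, *Acta2* and *Tpm2* at D2 lie above all Prol libraries of their genotype, and *Tpm3* lies below them. The replicate 1 libraries at D2 are the highest of their group, except for *Acta1* and *Tpm2* in knockout cells.

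By group means the cytoplasmic actins remained the most abundant actin transcripts at D2, at levels that varied widely between libraries. *Actb* (ENSMUSG00000029580, minus strand, chr5:142903115-142906754) was at 7545, 4592 and 6192 CPM in wildtype Prol and at 4731, 1770 and 1877 CPM in wildtype D2. In knockout cells it was at 7694, 5544 and 5338 CPM in Prol and 4939, 1483 and 2313 CPM at D2. The D2 replicate 1 library overlapped with the Prol libraries in wildtype, whereas the other D2 libraries were clearly lower. Its log2 fold change of -1.26 (SE 0.49, adjusted p = 0.065) in wildtype and -1.25 (SE 0.49, adjusted p = 0.064) in knockout cells missed the threshold.

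*Actg1* (ENSMUSG00000062825, minus strand, chr11:120345690-120348542) followed *Actb* closely. It was at 5098, 4032 and 4471 CPM in wildtype Prol and 3586, 1444 and 1708 CPM at D2, and in knockout cells at 5197, 4182 and 4464 CPM in Prol and 3721, 1214 and 2084 CPM at D2. The groups did not overlap in either genotype. Its log2 fold change was -1.13 (SE 0.42, adjusted p = 0.055) in wildtype and -1.12 (SE 0.42, adjusted p = 0.054) in knockout cells, also short of the threshold. With voom weights *Actg1* was called lower in wildtype (adjusted p = 0.039) and in knockout cells (0.041) and *Actb* in wildtype (0.0497), and with library totals as the only scaling *Actg1* was called lower in both genotypes. The ratio of *Actb* to *Actg1* within a library, which does not depend on library scaling, stayed between 0.980 and 1.48 in all 18 libraries.

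Among the tropomyosins, *Tpm2* rose and *Tpm3* fell. *Tpm2*, β-tropomyosin (ENSMUSG00000028464, minus strand, chr4:43514711-43523765), was at 158, 123 and 140 CPM in wildtype Prol and at 913, 566 and 488 CPM at D2. In knockout cells it was at 164, 146 and 126 CPM in Prol and at 408, 455 and 329 CPM at D2. No D2 library came near a Prol library. These values are sums over the 6 annotated transcripts of *Tpm2*, so they do not tell its forms apart. The log2 fold change was 2.18 (SE 0.23, adjusted p = 3.9e-06) in wildtype and 1.44 (SE 0.23, adjusted p = 1.7e-04) in knockout cells.

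*Tpm3*, which encodes slow muscle α-tropomyosin and several cytoplasmic forms (ENSMUSG00000027940, plus strand, chr3:90072649-90100902), fell from 720, 607 and 786 CPM in Prol to 347, 293 and 289 CPM at D2 in wildtype. In knockout cells it fell from 766, 640 and 747 CPM to 360, 258 and 315 CPM. The D2 libraries of both genotypes lay below all Prol libraries. The log2 fold change was -1.18 (SE 0.22, adjusted p = 6.3e-04) in wildtype and -1.22 (SE 0.22, adjusted p = 4.8e-04) in knockout cells.

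*Tpm4*, a cytoplasmic tropomyosin (ENSMUSG00000031799, plus strand, chr8:72134975-72153142), was at 1284, 896 and 1113 CPM in wildtype Prol and 931, 609 and 611 CPM at D2. The knockout libraries held 1220, 1076 and 1050 CPM in Prol and 960, 493 and 785 CPM at D2. Its log2 fold change of -0.63 (SE 0.26) did not pass the test in wildtype (adjusted p = 0.082) or in knockout cells (-0.63, SE 0.26, adjusted p = 0.079). *Tpm1* (ENSMUSG00000032366, minus strand, chr9:67022590-67049406) encodes striated, smooth muscle and cytoplasmic forms, which are summed in these values over 21 annotated transcripts. It was at 850 to 985 CPM in wildtype Prol and at 1500, 807 and 758 CPM at D2, with a log2 fold change of 0.06 (SE 0.28, adjusted p = 0.90). In knockout cells it was at 800 to 981 CPM in Prol and at 1285, 657 and 866 CPM at D2, with a log2 fold change of 0.02 (SE 0.28, adjusted p = 0.97). A shift between its forms is not visible in a sum over the gene.

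In all, 4 of the 10 members rose and 1 fell in wildtype D2/Prol, and the same 5 were called in the same directions in knockout D2/Prol. Of all genes tested, 30.7% were called in wildtype and 32.3% in knockout cells, 16.6% and 17.1% as higher and 14.1% and 15.2% as lower. The D2 libraries lay wholly above those of Prol in 4 members in each genotype (23% of all genes in wildtype and 25.1% in knockout cells), and wholly below in 2 members in wildtype (20.5%) and 5 in knockout cells (22.6%). By the criteria in the study's methods, an unadjusted p under 0.05, an absolute log2 fold change over 1.5 and 10 CPM in at least 1 library, *Acta1*, *Actc1*, *Acta2* and *Tpm2* were called in wildtype (7.68% of all genes) and *Acta1* and *Actc1* in knockout cells (8.18%). With a change over 1.5-fold in place of that log2 threshold, 8 members were called in each genotype (23.6% and 24.9% of all genes). In wildtype D2/Prol the log2 threshold called 1358 genes and the 1.5-fold rule 4167. The number of genes that the study reported was near the latter. The p-values here lack the study's voom weights and lane block. The median log2 fold change of the 10 members was -0.06 in wildtype and -0.30 in knockout cells, against -0.01 and 0.02 over all genes tested. Without the wildtype D2 replicate 1 library *Actb*, *Actg1* and *Tpm4* were called lower as well, which gives 8 members in wildtype (31.3% of all genes). Without the knockout D2 replicate 1 library the same 3 were called lower and *Acta2* was lost, giving 7 members (31.1% of all genes). Without both libraries, an alternative chosen after the data had been seen, 8 members were called in each genotype (35% and 35.6% of all genes), with the adjusted p of *Acta2* at 0.047 in knockout cells.

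In knockout cells the replicate numbers paired the libraries. With the replicate number as a block, 9 members were called in knockout D2/Prol, 4 higher and 5 lower, with 48.6% of all genes called. *Actb* (adjusted p = 8.4e-04), *Actg1* (0.0023), *Tpm4* (0.011) and *Actg2* (0.013) were then lower at D2, and *Tpm1* alone did not pass the test.

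**Figure D2:**
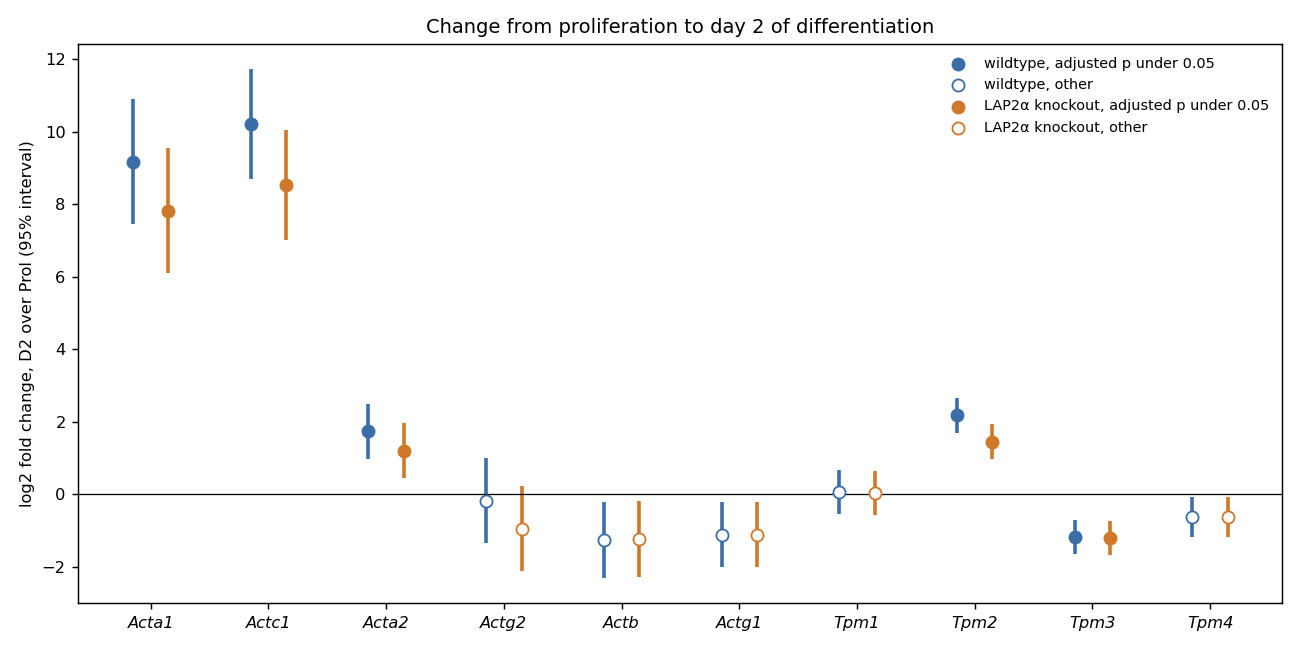
Fitted log2 fold change of D2 over Prol (vertical axis) for the 10 genes in wildtype (blue) and LAP2α knockout cells (orange); bars are 95% intervals and filled points have an adjusted p under 0.05. *Actc1* and *Acta1* lie between 7.82 and 10.21, *Tpm2* and *Acta2* between 1.19 and 2.18, and the called fall of *Tpm3* lies at -1.18 and -1.22.

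Compared per length, these changes turned the composition of the actin transcripts. CPM were divided by the length of all exons of a gene, and shares were taken within a library, where library scaling cancels. *Acta1* and *Actc1* together made up 0.020% to 0.086% of the summed actin CPM per kb in wildtype Prol and 34.4%, 38.1% and 33.0% at D2. In knockout cells they made up 0.028% to 0.102% in Prol and 13.7%, 34.7% and 19.6% at D2. The knockout replicate 2 library thus fell within the range of the wildtype D2 libraries, and the other knockout libraries lay below it. *Actb* and *Actg1* together went from 95.6% to 97.5% in wildtype Prol to 47.8% to 54.2% at D2, and in knockout cells from 95.9% to 96.7% to 52.9% to 76.2%. With the length of all exons, *Acta1* alone (23.1%) exceeded *Actg1* (21.6%) in wildtype D2 replicate 2. With the longest coding transcript that order was reversed, as it was by CPM without length (896 against 1444). No test was made of these shares.

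The summed actin CPM per kb did not separate the groups, at 4135 ± 819 (SD, n = 3) in wildtype Prol and 3602 ± 1855 (SD, n = 3) in wildtype D2. The summed tropomyosin level was 806 ± 102 (SD, n = 3) and 759 ± 231 (SD, n = 3) CPM per kb. Within it *Tpm2* went from 5.92% to 6.03% in wildtype Prol to 27.5% to 30.6% at D2, and *Tpm4* from 58.1% to 64.5% to 41.2% to 45.5%. In knockout cells *Tpm2* was at 5.66% to 6.44% in Prol and at 16.8%, 29.9% and 17.3% at D2, with replicate 2 again inside the wildtype range. The level of *Tpm4* among the tropomyosins depends strongly on the length used, because *Tpm1* and *Tpm3* have many alternative exons. With the longest coding transcript in place of all exons, the mean share of *Tpm4* in wildtype Prol was 42.1% in place of 61.5%.

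**Figure D3:**
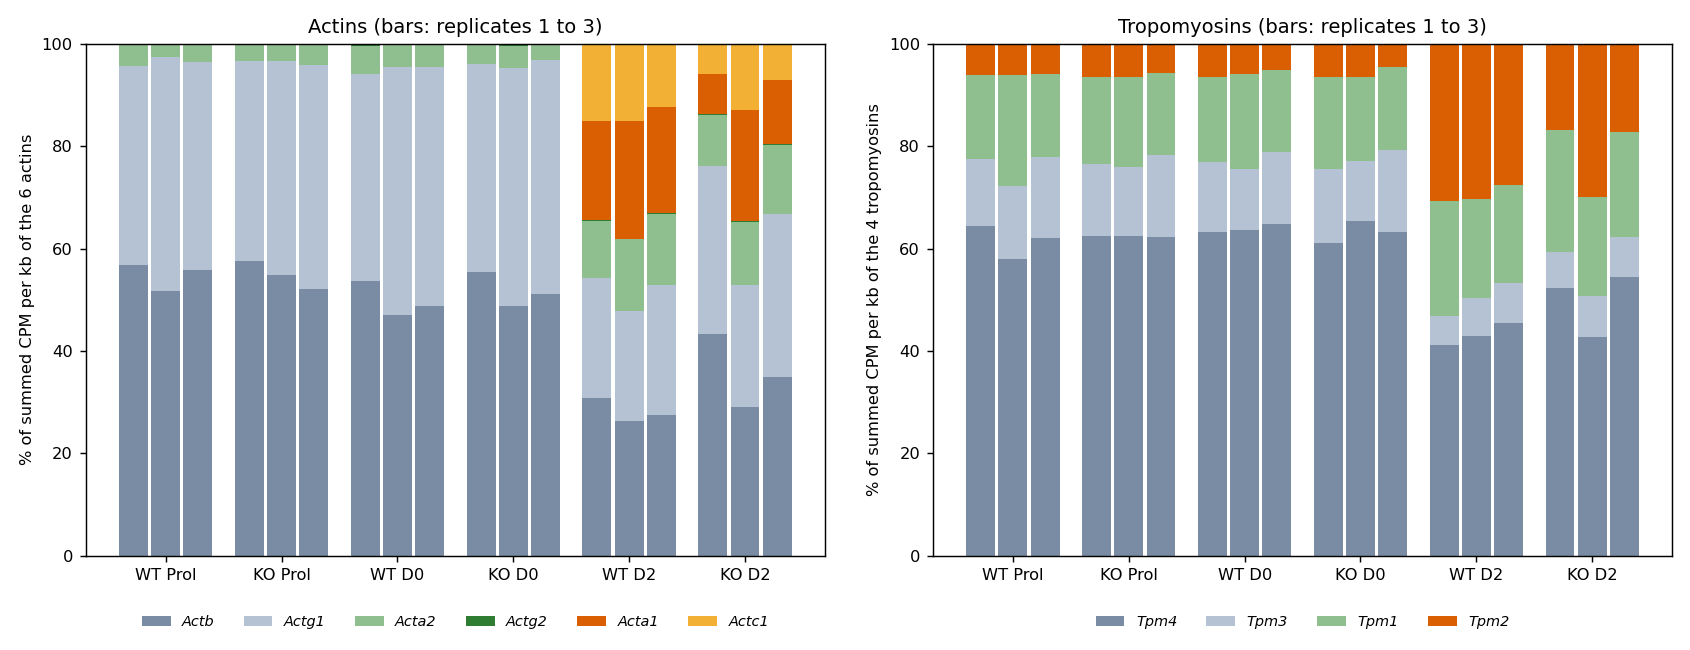
Share of each gene in the summed CPM per kb of the 6 actins (left) and the 4 tropomyosins (right), in percent, with 1 bar per library in the order of replicates 1 to 3 in each group. *Acta1* and *Actc1* are barely visible before D2 and take 33.0% to 38.1% of the wildtype D2 bars and 13.7% to 34.7% of the knockout D2 bars.

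By mean CPM per kb, the order in wildtype Prol was *Actb* (2281), *Actg1* (1706), *Tpm4* (498), *Tpm1* (144), *Acta2* (141), *Tpm3* (116), *Tpm2* (48.2), *Actg2* (5.77), *Acta1* (1.63) and *Actc1* (0.475). The neighbours *Actb* and *Actg1* overlapped, as did *Tpm1* with *Acta2*, *Acta2* with *Tpm3*, *Actg2* with *Acta1* and *Acta1* with *Actc1*. In wildtype D2 *Acta1* (739) and *Actc1* (519) had moved up to ranks 3 and 4 behind *Actb* (1042) and *Actg1* (845), and only *Tpm3* (50.9) and *Actg2* (5.49) were clear of the gene before them. In knockout D2 *Acta1* held rank 3 at 354 CPM per kb, below all libraries of *Actg1* (880), and *Actc1* rank 6 at 222 CPM per kb. The order depends in part on the length used. With the longest coding transcript *Tpm3* (315) lay above *Acta2* (152) in wildtype Prol. In knockout D2 *Tpm1* (324) then lay above *Actc1* (244).

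Between proliferation and confluence, none of the 10 genes separated the groups. In D0/Prol 0 of 10 members were called in either genotype by limma, where 0.00566% of all genes were called in wildtype and 0% in knockout cells. Without the replicate block an unadjusted p under 0.05 was found for 0 members, against 2.17% of all genes in wildtype and 1.12% in knockout cells. The replicate numbers paired the libraries here. With the block in limma, *Actc1* in wildtype had an unadjusted p of 0.045 (log2 fold change 1.12), where 6.7% of all genes were under 0.05. In knockout cells 0 members were, against 3.29% of all genes, and 0 members were called after adjustment in either genotype. All 10 members overlapped between D0 and Prol in both genotypes. *Acta1* was at 7.83, 0.993 and 1.31 CPM in wildtype D0 and at 1.34, 5.27 and 0.814 CPM in knockout D0, and *Actc1* at 3.50, 0.809 and 0.958 CPM and at 0.785, 2.86 and 0.533 CPM. High levels of the striated muscle actins were thus seen in the D2 libraries alone.

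The question behind the knockout was whether myoblasts without LAP2α differentiate differently. In Prol and at D0 the knockout and wildtype libraries overlapped for all 10 members, and 0 members were called by limma (0.00566% of all genes in Prol and 0% at D0). An unadjusted p under 0.05 was found for 0 members, against 1.11% of all genes in Prol and 1.47% at D0. At D2 *Acta1*, *Actc1* and *Tpm2* were lower in each knockout library than in each wildtype library, as were 3.81% of all genes tested, and the other 7 members overlapped. None of the 3 passed limma's test after adjustment over all genes, and 0% of all genes did.

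*Tpm2* at D2 was at 913, 566 and 488 CPM in wildtype and at 408, 455 and 329 CPM in knockout cells. The log2 fold change of knockout over wildtype was -0.68 (SE 0.23, 95% interval -1.17 to -0.20), with an unadjusted p of 0.0088 and an adjusted p of 1.00 in limma. It was the 1 member with an unadjusted p under 0.05, which 1.96% of all genes had. The replicate numbers paired the libraries here, and with the replicate block 4 members had an unadjusted p under 0.05, against 5.23% of all genes, with 0 called after adjustment. These were *Tpm2* (unadjusted p 5.2e-04, adjusted p 0.35), *Actg2* (unadjusted p 0.0039), *Acta2* (unadjusted p 0.022) and *Actc1* (unadjusted p 0.0499). Without the wildtype D2 replicate 1 library the log2 fold change of *Tpm2* was -0.42 and without both D2 replicate 1 libraries -0.44, and in both settings 0 members had an unadjusted p under 0.05.

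*Acta1* was 2.09-fold lower by the group means at D2 in knockout than in wildtype cells, with a fitted log2 fold change of -0.99 (SE 0.81, 95% interval -2.71 to 0.73, adjusted p = 1.00). The knockout libraries held 0.304, 0.713 and 0.591 of the level of the wildtype library with the same number. *Actc1* was 2.34-fold lower by the group means, with a log2 fold change of -1.10 (SE 0.71, 95% interval -2.61 to 0.42, adjusted p = 1.00), and the ratios were 0.286, 0.655 and 0.549. In both genes the replicate 1 pair differed most. Without both replicate 1 libraries the log2 fold change was -0.62 in *Acta1* and -0.74 in *Actc1*.

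*Acta2* and *Actg2* were lower in the knockout library of each of the 3 pairs at D2, with overlap between the groups. Their log2 fold changes were -0.43 (SE 0.36) and -0.99 (SE 0.55), and neither passed the test. For *Actb* (0.04), *Actg1* (0.03), *Tpm4* (0.03), *Tpm3* (0.00) and *Tpm1* (-0.11) the fitted log2 difference was small beside its SE of 0.22 to 0.49, and the 95% intervals reached from -1.01 to 1.08 in *Actb* and from -0.46 to 0.46 in *Tpm3*. The summed level of the myogenic markers was 504 to 875 CPM in the wildtype and 313 to 425 CPM in the knockout D2 libraries, and its part in the values of the muscle isoforms was not tested. Under library totals as the only scaling, the signs of the knockout over wildtype values were kept in all 10 members.

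**Figure D4:**
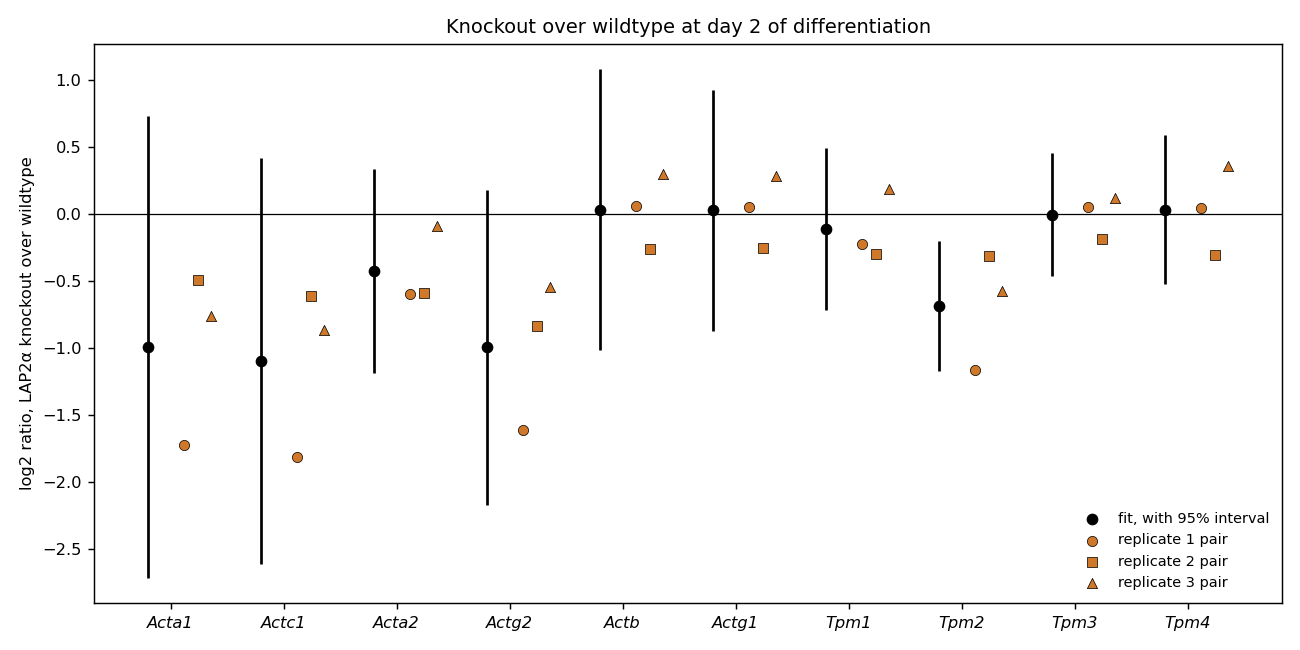
Log2 ratio of LAP2α knockout over wildtype at D2 for the 10 genes; black points are fitted values with 95% intervals and orange symbols the ratio of the knockout and wildtype libraries with the same replicate number. The interval of *Tpm2* (-1.17 to -0.20) is the 1 that does not reach 0, and all 3 pairs lie below 0 for *Acta1*, *Actc1*, *Acta2*, *Actg2* and *Tpm2*.

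Whether the response to differentiation itself differed between the genotypes was tested as the difference of the D2/Prol changes. By limma 0 of 10 members were called, as were 0% of all genes, and voom weights also called 0 members here and in each comparison of knockout with wildtype or of D0 with Prol. *Tpm2* was the 1 member with an unadjusted p under 0.05, which 0.945% of all genes had, at a difference of -0.74 (SE 0.32). That unadjusted p was lost without the wildtype D2 replicate 1 library (-0.47) and without both D2 replicate 1 libraries (-0.50), in 5 further fits that each left out 1 other library, and in a fit of only the groups compared. With the replicate block *Tpm2*, *Acta2* and *Actc1* had an unadjusted p under 0.05, against 2.26% of all genes, and 0 were called. The difference was -1.35 (SE 1.15) in *Acta1*, -1.67 (SE 1.01) in *Actc1* and -0.53 (SE 0.51) in *Acta2*. Over the 12 fits that each left out 1 library it ranged from -2.11 to -0.89 in *Acta1*, -2.22 to -1.09 in *Actc1* and -0.92 to -0.47 in *Tpm2*. By the criteria in the study's methods 0 members were called in KO/WT at D2 (0.0736% of all genes) or in the difference of the responses (0.0905%), and with a change over 1.5-fold *Tpm2* was called in both (0.464% and 0.232%).

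Partners of the sarcomeric thin filament rose at D2 almost throughout. Of 18 such genes, none of them a member, 17 rose and 0 fell in wildtype D2/Prol and 16 rose and 0 fell in knockout D2/Prol, where 16.6% and 17.1% of all genes were called higher. The median log2 fold change was 7.50 and 6.32. The largest rises in wildtype were those of *Lmod3*, which nucleates thin filaments (10.13, SE 1.08), and *Tnnc2*, fast skeletal troponin C (9.85, SE 0.76). The smallest were those of *Cfl2*, muscle cofilin (0.48, SE 0.16, adjusted p = 0.031), and *Tmod4*, a capping protein, which did not pass the test (0.69, SE 0.74). In KO/WT at D2, 0 of the 18 were called by limma, 1 had an unadjusted p under 0.05, all 18 fitted values were negative and the median was -0.93, against -0.01 over all genes tested. In 12 of the 18 every knockout library was below every wildtype library, as in 3.81% of all genes. Without the D2 replicate 1 libraries 17 of the 18 values were negative, the median was -0.65, 0 had an unadjusted p under 0.05, and in 16 of the 18 the remaining knockout libraries were below the wildtype ones, as in 16.5% of all genes.

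Without the replicate block, regulators of cytoplasmic and smooth muscle actin filaments were called about as often as genes in general. Of 18 genes, 1 rose and 4 fell in each genotype at D2, where 30.7% and 32.3% of all genes were called, with a median log2 fold change of -0.34 in wildtype and -0.31 in knockout cells. *Cnn3*, acidic calponin, rose by 1.11 (SE 0.21) in wildtype, whereas *Tagln2* (-1.93, SE 0.40) and *Cnn1*, basic calponin (-1.65, SE 0.51), fell. *Lmod1*, smooth muscle leiomodin, had the largest positive value (1.75, SE 0.94) without passing the test. With the replicate block 2 rose and 9 fell in knockout cells, where 24.6% of all genes were called higher and 23.9% lower. The share that fell was then above that of all genes. In KO/WT at D2 0 of the 18 were called by limma, 0 had an unadjusted p under 0.05, and the median was -0.01.

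The patterns over the 18 libraries were last compared with those of 10759 genes that were tested and reached 10 CPM. The 5 genes most like *Acta1* by Pearson's r of log2 CPM were *Myh3* (0.997), the embryonic myosin heavy chain, *Mybph* (0.997), *Casq2* (0.996), *Mymk* (0.996), the fusion protein myomaker, and *Actc1* (0.994). Those most like *Actc1* were *Mymk* (0.998), *Casq2* (0.996), *Mybph* (0.996), *Acta1* (0.994) and *Myog* (0.994). These values describe 18 points that share 3 states and 2 genotypes, and the D2 libraries alone set most of the correlation in genes that start near 0.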

How the data were processed

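RNA-seq of 18 libraries (6 groups, 3 replicates each, grouped by the sample titles) was analysed from the deposited tables. The authors enriched polyA RNA, sequenced stranded single-end libraries, mapped reads to the GRCm38 transcriptome, took estimated counts from RSEM, added these up per gene, computed TMM factors and deposited CPM with 0.5 counts added per gene. Expected counts and totals (median 32939620) were recovered from the smallest value of each file. The CPM are log-transformed here (log2) and were fitted with limma 3.58.1 in R 4.3.3 (lmFit, eBayes with a trend, single factor of 6 groups), for the 17672 genes whose expected count exceeded 5 in each library of a group. Changed means a Benjamini-Hochberg adjusted p under 0.05 over all genes tested, two-sided. The fit was tested on simulated data.

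Same-numbered libraries deviated together (correlation over 0.1) in every comparison except WT D2/Prol, where replicate 3 gave 0.039. A lane batch in the methods is not in the labels and was not modelled. Lengths, positions and 50-base words are from GENCODE M21, promoters from RefSeq. The members, gene lists and tests were chosen with earlier results of these data known. Named are the 10 members, per list the 2 largest rises and falls in WT D2/Prol, the 5 genes most like *Acta1* and *Actc1* (those for *Acta2* and *Actg1* are not reported here), and *Tmpo*. Of the markers, *Kdr* rose in knockout D2/Prol, *Csf1r* fell in both genotypes, and *Pecam1* did not pass the test. The criteria as the study's methods state them, with an absolute log2 fold change over 1.5, are an alternative chosen with the data in view, beside a planned threshold of 1.5-fold.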

Additional observations from a re-analysis of the deposited data

How the results depend on the processing

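The 5 members called in D2/Prol kept their direction in both genotypes under every alternative run. At the adjusted threshold their calls held except that of *Acta2* in knockout cells. The number called in wildtype D2/Prol was 8 with the replicate block (47.7% of all genes), against 5 without it (30.7%). It was 8 with a random replicate block and voom weights, 8 with unadjusted p and 1.5-fold (23.6%) and 8 without both D2 replicate 1 libraries (35%). It was 7 with voom weights, 6 with library totals, 4 by the criteria in the study's methods (7.68%) and 5 to 8 with 1 library left out. The share of all genes is not given for voom weights, the random block or library totals. In wildtype D2/Prol replicate 3 did not correlate, so the block was not taken as pairing there; it added *Actb*, *Actg1* and *Tpm4*. In knockout D2/Prol the number was 9 with the replicate block (48.6% of all genes), against 5 without it (32.3%), and 9 with the random block. It was 8 with 1.5-fold (24.9%) and 8 without both D2 replicate 1 libraries (35.6%). It was 6 with voom weights, 6 with library totals, 2 by the criteria in the study's methods (8.18%) and 4 to 7 with 1 library left out. The 1.5-fold rule called 1 member in KO/WT at D2 and 1 in the difference of the responses. In the other 6 comparisons every other setting, the replicate block included, called 0 members at the adjusted threshold.

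*Tpm1* changed sign without both D2 replicate 1 libraries (-0.25 in wildtype and -0.24 in knockout D2/Prol), and *Tpm3* in KO/WT at D2 with voom weights (0.003) and with a random block (0.001). With a library left out, values that changed sign ranged in wildtype D2/Prol from -0.80 to 0.30 in *Actg2* and -0.25 to 0.24 in *Tpm1*, in knockout D2/Prol from -0.23 to 0.25 in *Tpm1*, and in KO/WT at D2 from -0.43 to 0.49 in *Actb*, -0.38 to 0.43 in *Actg1*, -0.37 to 0.20 in *Tpm1*, -0.11 to 0.12 in *Tpm3* and -0.17 to 0.31 in *Tpm4*. None of these was called.

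Shares within a library moved with the length used. With the longest coding transcript, or with no length, *Acta1* and *Actc1* made up 30.7% or 24.9% of the actins in wildtype D2, and *Actb* and *Actg1* 57.7% or 62.1% there and 97.2% or 97.1% in knockout Prol. *Tpm2* made up 5.28% or 4.86% of the tropomyosins in wildtype Prol, 5.48% or 5.07% in knockout Prol and 26.5% or 24.1% in wildtype D2, and *Tpm4* 42.1% or 38.0%, 42.9% or 38.9% and 30.1% or 26.8% in the same groups and 34.7% or 30.8% in knockout D2. By Spearman's rho, 3 of the 5 genes most like *Acta1* and 3 of those most like *Actc1* were again among the first 5. Library totals as the only scaling shifted the median of all genes by 0.150 in wildtype and 0.156 in knockout D2/Prol.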

Other observations

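The low levels of *Acta1* and *Actc1* before differentiation followed the replicate number within each genotype, a pattern noticed after the values had been seen and not tested. In wildtype, replicate 1 was the highest library of *Acta1* in Prol (5.32 CPM), at D0 (7.83 CPM) and at D2 (1701 CPM). In knockout cells, replicate 2 was the highest in Prol (4.51 CPM), at D0 (5.27 CPM) and at D2 (638 CPM). *Actc1* was highest in wildtype replicate 1 in all 3 states and in knockout replicate 2 in Prol (1.49 CPM) and at D0 (2.86 CPM), with replicates 1 and 2 nearly level at D2 (400 and 399 CPM). The ratio of *Acta1* to *Actc1* within a library ranged from 1.72 to 4.01 in wildtype Prol and from 1.21 to 1.60 in wildtype D2, and from 1.94 to 3.02 and 1.29 to 1.72 in knockout cells.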
